A study of Helianthemum marifolium subsp. andalusicum and Helianthemum marifolium subsp. marifolium and Helianthemum marifolium subsp. molle with 16 samples.

Results

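Leaf transcriptomes of Helianthemum marifolium subsp. andalusicum were compared with those of subsp. origanifolium, using 8 of the 16 poly-A RNA libraries of the series, 4 from each of these subspecies. The libraries were taken by the subspecies in their labels, and no expression value entered that choice. Both groups were adult apical leaves of greenhouse plants raised from scarified seed and harvested 446 days after sowing, so they differ in subspecies and share tissue, age, potting mix and temperature regime. Library titles carry a code as well as a number. Andalusicum libraries 1 and 3 bear code andal260 and libraries 6 and 8 bear code andal261, while origanifolium libraries 31 and 33 bear code origa-247 and libraries 38 and 39 bear code origa-255. The labels leave unsaid what a code stands for and whether each library is its own plant. All p-values therefore rest on library-to-library spread, which may be technical in part.

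Helianthemum marifolium is a small rock rose, a dwarf shrub of the family Cistaceae, native to the western Mediterranean. Its subspecies are told apart mainly by the shape and the hair cover of the leaf. Where no genome is at hand, RNA reads are assembled into transcripts, similar transcripts are grouped into clusters, and reads are counted for each cluster, which then stands in for a gene. The files pair no gene name and no sequence with a cluster, and no reference table was used here, so clusters are described by their levels and pathways cannot be named. A cluster can be at 0 in a subspecies because the gene is silent or missing there, or because its sequence differs so much that the reads are counted elsewhere. These cannot be told apart from counts. In whole leaves, fewer cells of a type and less RNA per cell cannot be told apart either.

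Total counts ran from 26934329 to 32678473 per library in andalusicum (29.9 ± 2.51 in units of 1e+06 counts, SD, n = 4) and from 22170314 to 32036854 in origanifolium (26.2 ± 4.22 in the same units, SD, n = 4). Clusters with 10 or more counts numbered between 38039 and 40373 in an andalusicum library and between 36508 and 40472 in an origanifolium library. Of the 100462 clusters in the table, 89286 had a count in at least 1 of the 8 libraries, and the 36171 with 10 or more counts in at least 4 of them were tested. At the edge of this rule, 4814 clusters reached 10 counts in exactly 4 libraries and 5767 in exactly 3. Levels below are CPM, each count divided by the library total and scaled to 1e+06 counts, and fold changes are andalusicum over origanifolium from the edgeR fit, which scales libraries by TMM.

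Whole profiles separated the subspecies in every pair of libraries. Measured over all tested clusters, the root mean square log2 CPM difference was 2.22 ± 0.0838 for the 16 pairs that cross subspecies and 1.75 ± 0.118 for the 12 pairs within them (SD over pairs, which share libraries). The smallest distance across subspecies, 2.08, lay above the largest within, 1.92. The mean difference of 0.472 was the largest among all 35 ways to divide the 8 libraries into fours. The one-sided exact permutation p was 0.0286, the lowest value that 35 splits of single libraries allow. This test treats all 8 libraries as exchangeable, although libraries of the same code may not be independent. Within andalusicum, pairs of different codes lay 1.87 apart and the pairs of the same code 1.56 and 1.82. Within origanifolium the values were smaller, 1.72 between codes and 1.58 and 1.64 within them. All tested clusters include those at 0 on a side. Among the 21673 clusters with 10 or more counts in all 8 libraries, the mean distance between minus within subspecies was 0.196, against 0.472. On these 21673 clusters, the median coefficient of variation over the 4 libraries was 35.2% in andalusicum and 30.4% in origanifolium.

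**Figure D1:**
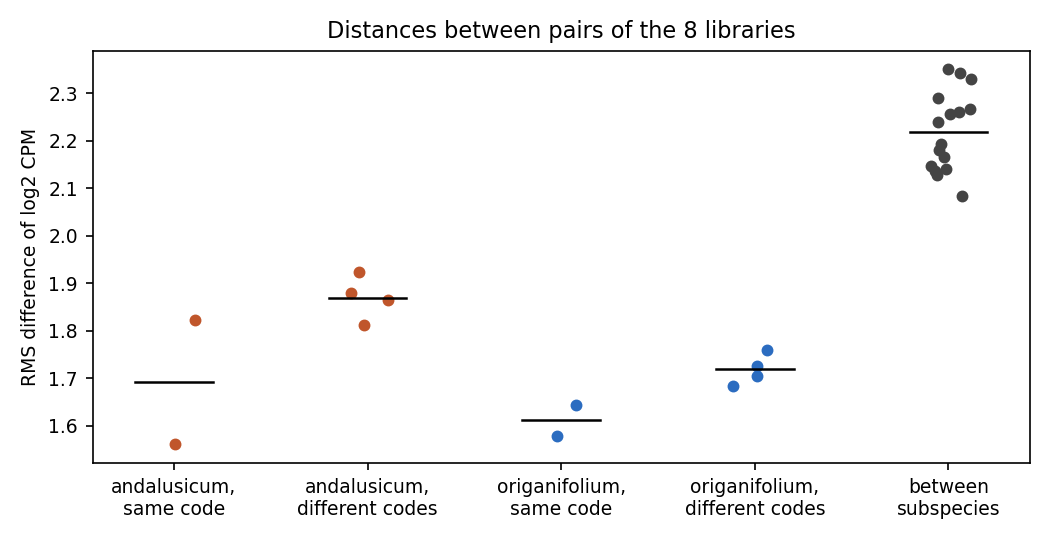
Distance between each pair of the 8 libraries, as the root mean square log2 CPM difference in 36171 clusters (vertical axis), by kind of pair; each point is 1 pair and the line is the mean. All 16 pairs that cross subspecies lie at 2.08 or more, and all 12 pairs within a subspecies at 1.92 or less.

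Leaves of the 2 subspecies differed in 1962 of the 36171 tested clusters, which is 5.42% (edgeR quasi-likelihood test, Benjamini-Hochberg adjusted p under 0.05). Andalusicum was higher in 1028 of them (2.84%) and lower in 934 (2.58%). Library values did not overlap between subspecies in 1021 of the clusters called higher and in 926 of those called lower. Over all tested clusters, called or not, libraries separated in this way upward in 3036 (8.39%) and downward in 2922 (8.08%). Where the lower side was at 0 or under 10 counts in each library, the filter nearly fixes such a separation. Among the 21673 clusters with 10 or more counts in all 8 libraries, it held for 363 of 368 called higher and 414 of 421 called lower. Called or not, libraries of that set separated upward in 1672 (7.71%) and downward in 1441 (6.65%). The calls fell into 3 kinds by what the lower side held. In 636 of them the lower side had 0 counts in all 4 libraries, in 366 it had counts but under 10 in each library, and in 960 it had 10 or more counts in at least 1 library. Clusters of the first and second kinds passed the filter through the higher side alone, so their calls are largely fixed by the rule. Of the 34724 tested clusters with 10 or more counts in at least 1 library of each side, 2.76% were called. The number of calls depended on single libraries and on the tool. It was 1161, 1044 and 942 without origanifolium 31, 38 and 39. The higher calls numbered 670 and 683 without andalusicum 3 and 8 and 652, 605 and 539 without origanifolium 31, 38 and 39, and the lower calls 509, 620, 439 and 403 without origanifolium 31, 33, 38 and 39. DESeq2 called 4932 (13.6%), and summing the libraries of each code left no cluster called, with 5578 at an unadjusted p under 0.05.

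In the fit of all tested clusters, those at 0 on a side included, 35531 clusters had at least 1 count on each side. Of these, 1326 differed (3.73%), 657 of them higher and 669 lower in andalusicum. This set holds 807 clusters with under 10 counts in each library of a side, which passed the filter through the other side alone and of which 366 were called, so their calls are largely fixed by the rule. In the other 34724 clusters 960 were called (2.76%), 451 higher and 509 lower. Without the 640 clusters at 0 on a side in the fit, the 1326 became 825, all of them among the 1326, and the number was 865 and 880 without andalusicum 6 and 8, and 705, 852, 618 and 549 without origanifolium 31, 33, 38 and 39. The higher calls among them numbered 408, 414 and 396 without andalusicum 3, 6 and 8 and 361, 431, 340 and 291 without origanifolium 31, 33, 38 and 39, and the lower calls 344, 421, 278 and 258 without these origanifolium libraries. In the 21673 clusters with 10 or more counts in every library, most fitted folds were small. Their median log2 fold change was 0.02, which the TMM scaling largely sets near 0. The middle 50% of clusters ran from -0.44 to 0.46, and 81.7% were within a fitted 2-fold of each other. Equality of the subspecies was not tested. In this well-measured set 789 clusters were called (3.64%), 368 higher and 421 lower in andalusicum. Their median fitted fold was 3.05 for the higher and 3.22 for the lower. Past 8-fold there were 27 higher and 49 lower, and past 32-fold 4 higher and 3 lower.

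**Figure D2:**
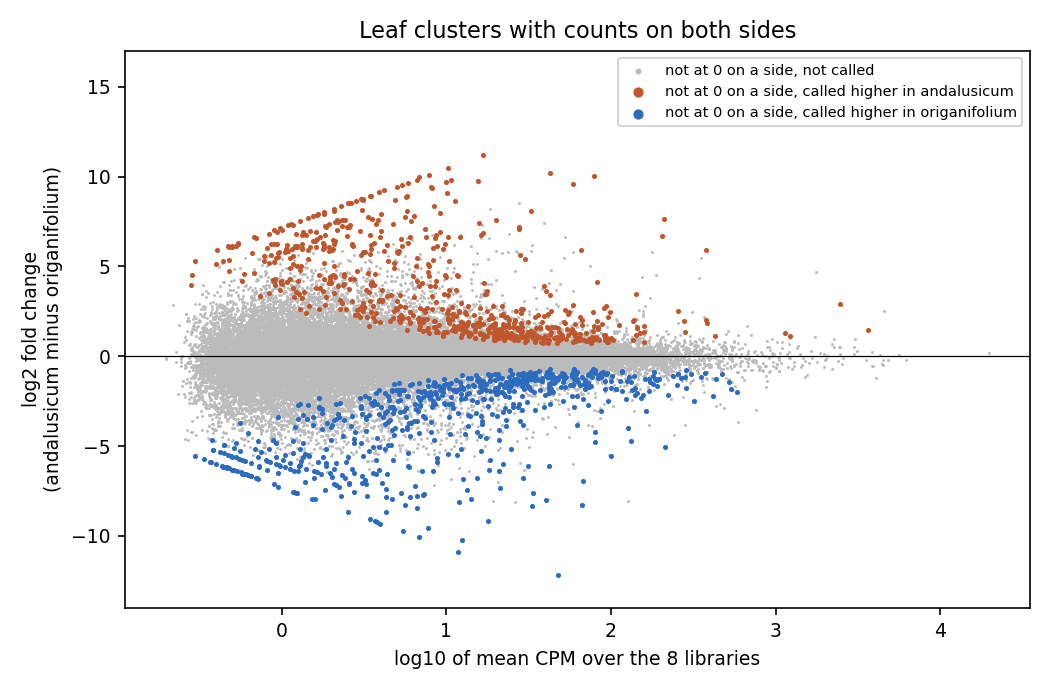
Fitted log2 fold change, andalusicum minus origanifolium (vertical axis), against the log10 of the mean CPM over the 8 libraries (horizontal axis) for the 35531 tested clusters with at least 1 count on each side; each point is 1 cluster. The 657 called higher in andalusicum and the 669 called lower are coloured, and they lie on both sides of 0 over most of the range of levels.

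Clusters chosen below by fold, bound or p had to be called with no overlap of libraries between subspecies, so their separation is no separate result. The well-measured cluster with the smallest p among the increases, and the second largest fold, was Cluster-3823.45203. It stood at 416, 551, 352 and 304 CPM in andalusicum 1, 3, 6 and 8 and at 7.40, 2.58, 1.86 and 3.50 CPM in origanifolium 31, 33, 38 and 39. The lowest andalusicum library lay far above the highest origanifolium library, and the fitted log2 fold change was 6.71 ± 0.54 SE (edgeR adjusted p = 0.00238). The other subspecies split on this cluster, with 408 ± 382 CPM in marifolium and 18.7 ± 25.9 CPM in molle (SD, n = 4 each).

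The largest fold in this set belonged to a cluster at 607, 104, 668 and 296 CPM in the 4 andalusicum libraries and 2.21, 2.37, 0.913 and 2.43 CPM in the origanifolium libraries. The groups stood far apart, yet andalusicum itself varied, with library 3 lowest and library 6 highest (log2 fold change 7.64 ± 0.67 SE, edgeR adjusted p = 0.00241). The third largest followed the same order of libraries within andalusicum, at 840.2, 150.3, 1517 and 456 CPM, against 9.74, 16.6, 9.35 and 10.6 CPM in origanifolium (log2 fold change 5.91 ± 0.67 SE, edgeR adjusted p = 0.00416). The molle mean lay near that of origanifolium in both clusters, at 1.24 ± 1.79 and 6.84 ± 9.77 CPM. On the latter cluster the molle libraries ran from 0.334 to 21.0 CPM. Marifolium averaged 27.7 ± 42.9 and 20.1 ± 37.5 CPM, mostly from library 12 at 91.7 and 76.3 CPM. The fourth was a transcript of 2391 nt at 73.2, 64.4, 50.7 and 46.6 CPM in andalusicum and 3.38, 0.614, 0.874 and 0.531 CPM in origanifolium (edgeR adjusted p = 0.00572). It was near 0 in the remaining subspecies, at 0.0844 ± 0.0743 CPM in molle and 0.0738 ± 0.109 CPM in marifolium, so among the 4 subspecies its level in andalusicum stood alone.

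The steadiest of the increases chosen by p or fold was smaller. A cluster held 41.3, 43.5, 43.0 and 40.5 CPM in andalusicum and 9.79, 9.91, 10.4 and 10.1 CPM in origanifolium, with a fitted difference of 2.03 ± 0.18 SE on the log2 scale (edgeR adjusted p = 0.00246). Both sides were even to within a few percent, while molle spread from 12.3 to 26.5 CPM and marifolium from 3.78 to 12.1 CPM. A transcript of 1466 nt stood at 156, 221, 165 and 117 CPM against 26.2, 19.1, 20.4 and 26.6 CPM (log2 fold change 2.81 ± 0.27 SE, edgeR adjusted p = 0.00311). Molle was between the sides on it, at 76.2 ± 37.8 CPM, and marifolium near origanifolium, at 26.6 ± 8.32 CPM.

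Among the decreases in andalusicum the smallest p belonged to Cluster-3823.43230. It stood at 48.2, 34.6, 29.4 and 30.8 CPM in andalusicum and at 276, 317, 306 and 259.9 CPM in origanifolium. No library came near the other group, and the cluster fell by 3.06 ± 0.22 (SE) on the log2 scale (edgeR adjusted p = 0.00196). Molle at 219 ± 63.1 CPM and marifolium at 193 ± 93.5 CPM were both nearer to origanifolium.

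Of the next 3 by p, the first held 4.64 ± 1.10 CPM in andalusicum and 39.6 ± 5.36 CPM in origanifolium (edgeR adjusted p = 0.00238). The second, a transcript of 367 nt, held 2.56 ± 0.621 CPM against 30.2 ± 6.80 CPM (edgeR adjusted p = 0.00239). The third held 1.26 ± 0.205 CPM against 24.7 ± 9.23 CPM (edgeR adjusted p = 0.00239, SD and n = 4 throughout). The other subspecies took different places on them. On the transcript of 367 nt molle was close to andalusicum at 4.38 ± 1.25 CPM and marifolium to origanifolium at 26.7 ± 6.40 CPM.

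The largest decreases were less even. The largest was in a cluster at 0.589 and 0.741 CPM in andalusicum 1 and 3 of code andal260, 9.17 and 6.92 CPM in andalusicum 6 and 8 of code andal261, and 94.9, 159, 313 and 223 CPM in origanifolium (log2 fold change -5.57 ± 0.98 SE, edgeR adjusted p = 0.0173). Within andalusicum the codes stood apart on it, and both lay below every origanifolium library. Molle and marifolium held it at 168 ± 40.8 and 228 ± 29.8 CPM, as high as origanifolium. A transcript of 1702 nt was at 1.14, 0.322, 1.04 and 0.306 CPM against 18.8, 20.1, 17.6 and 38.8 CPM (log2 fold change -5.15 ± 0.55 SE, edgeR adjusted p = 0.00359). A transcript of 2563 nt stood at 23.9, 2.93, 21.1 and 5.26 CPM against 121, 959.6, 197 and 369 CPM (log2 fold change -5.03 ± 0.89 SE, edgeR adjusted p = 0.0173). Its origanifolium libraries differed among themselves by more than the gap between the nearest libraries of the groups. A transcript of 1426 nt, at 5.55 ± 4.95 CPM against 154 ± 93.6 CPM (edgeR adjusted p = 0.0217), lost its call without andalusicum 1 or 8 (the adjusted p ran from 2.56e-08 to 0.118 over 21 alternatives).

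**Figure D3:**
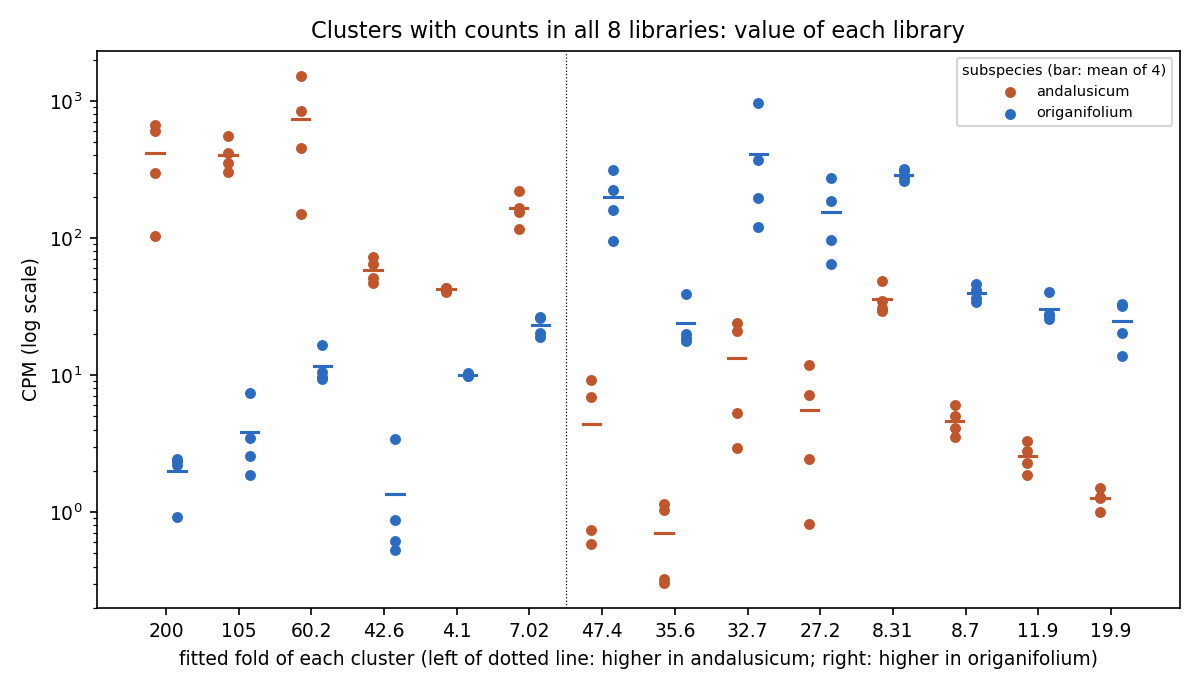
CPM on a log scale (vertical axis) in each of the 4 andalusicum and 4 origanifolium libraries for the 14 clusters chosen by fold or p among those with 10 or more counts in all 8 libraries; points are libraries, bars are means of 4, and each cluster is marked by its fitted fold. That the groups do not overlap was a condition of the choice. Of the 14 clusters, the 4.10-fold cluster has the least spread.

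At the most abundant leaf transcripts no difference passed the test. The top cluster held 16618, 23782, 23455 and 20001 CPM in andalusicum and 18789.7, 19739.7, 19270.0 and 15891 CPM in origanifolium, so that the groups overlapped (log2 fold change 0.16 ± 0.38 SE, edgeR adjusted p = 0.854). None of the 10 most abundant clusters was called. For 8 of them the fitted log2 fold change lay between -0.47 and 0.16, with standard errors from 0.30 to 0.40. The others were a cluster at 1133, 10031, 4802 and 15222 CPM in andalusicum and 174, 1436, 2003 and 1869 CPM in origanifolium (log2 fold change 2.54 ± 0.93 SE, edgeR adjusted p = 0.166), and a cluster at 2453 ± 1457 against 5735 ± 2155 CPM (log2 fold change -1.22 ± 0.52 SE, edgeR adjusted p = 0.233). The first of these varied widely within both subspecies, lowest in library 1 and in library 31, and of 21 alternatives DESeq2 alone called it (adjusted p = 0.0165, with a highest value of 0.442).

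Of the 77 tested clusters with a mean above 1000 CPM, 4 were called, all higher in andalusicum, a share of 5.19%. These were picked out after their values were seen. They stood at 5333 ± 1214 against 1915 ± 504 CPM, 4374 ± 1416 against 573 ± 412 CPM, 1709.8 ± 222 against 752 ± 209 CPM and 1627 ± 236 against 659 ± 143 CPM (edgeR adjusted p = 0.0482, 0.0248, 0.0460 and 0.0304). In all of them the lowest andalusicum library was above the highest origanifolium library. The 2nd kept its call in 15 of 21 alternatives, losing it without andalusicum 3 or 6 or origanifolium 38 or 39, and the others lost theirs without any 1 of the 8 libraries (adjusted p up to 0.413, 0.119, 0.754 and 0.540 over 21 alternatives each). Among clusters with counts on each side, of which 3.73% were called in all, the calls higher and lower in andalusicum numbered 47 and 68 under 1 CPM, 295 and 245 from 1 to 10 CPM, 288 and 301 from 10 to 100 CPM and 23 and 55 from 100 to 1000 CPM. The shares called in these bins were 1.77%, 3.36%, 5.23% and 4.78%, and no test of the balance was made.

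Clusters at 0 in one whole subspecies were described apart, but they shared the fit and the p adjustment with all other tested clusters. The testing rule admits them only if every library of the other side holds 10 or more counts. A call is then nearly fixed. There were 374 clusters present in all 4 andalusicum libraries and at 0 in origanifolium, and 266 present in all 4 origanifolium libraries and at 0 in andalusicum. The test called 371 and 265 of them, a share from which nothing is read, and no p is given for single clusters of this kind that were called. The 374 held between 0.202% and 0.284% of the counts of an andalusicum library, and the 266 between 0.113% and 0.200% of an origanifolium library. Most were of low level. The median of the present side was 3.37 CPM for the 374 and 2.19 CPM for the 266, and 57 and 23 of them exceeded 10 CPM. Set against 3 counts in the pooled libraries of the absent side, a floor of 0.0286 CPM in origanifolium and 0.0251 CPM in andalusicum, 206 and 111 were at least 100-fold higher on the side that held them. Bounds and floors take in counting error alone, as no molecular identifiers were counted.

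A cluster at 0 on one side reached 10 counts in a single library of the other far more often than in all 4. At 0 in origanifolium, 6178 clusters reached 10 counts in 1 andalusicum library, 1490 in 2, 565 in 3 and 374 in 4. At 0 in andalusicum, the numbers for 1 to 4 origanifolium libraries were 7003, 1357, 404 and 266. Where 2 andalusicum libraries held the cluster, they bore the same code in 865 of 1490 cases (58.1%), and for origanifolium in 635 of 1357 (46.8%), although only 2 of the 6 library pairs of a subspecies share a code. Library andalusicum 6 was the one under 10 counts in 204 of the 565 clusters found in 3 libraries, and without it the 374 became 578. Library origanifolium 33 was the one under 10 counts in 141 of 404, and without it the 266 became 407.

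The order of the sides turned over at low counts. With a limit of 1 count instead of 10 in every library of the present side, 678 clusters were held by andalusicum alone and 1718 by origanifolium alone. With a limit of 50 counts the numbers were 130 and 76. The excess of origanifolium at the limit of 1 count lay in 2 classes. Clusters with 1 to 9 counts in all 4 libraries of the present side numbered 556 for origanifolium and 19 for andalusicum, and those with some libraries under 10 counts and some at 10 or more numbered 896 and 285. Origanifolium had the lower mean total. With all 8 libraries thinned to 22170314 counts, a setting chosen after seeing the data, the first class held 596 and 17 clusters and the second 862 and 325. The 556 clusters carried between 1760 and 2117 counts in each origanifolium library, a narrow range, with a median of 3 counts per cluster and library. A transcript named in the form of the assembler Trinity was in 74.6% of the 556 and in 36.8% of the 19. Of all listed transcripts, 70183 of 122009 have such a name. That number counts transcripts, and 18116 of those listed are under names with no counts, so it is no baseline for these shares of clusters. Whether the assembly bears on these numbers was not tested. Of the 556, 285 were at 0 in all molle libraries and 354 in all marifolium libraries, and 208 in both. They fall under the limit for testing and have no test here.

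**Figure D4:**
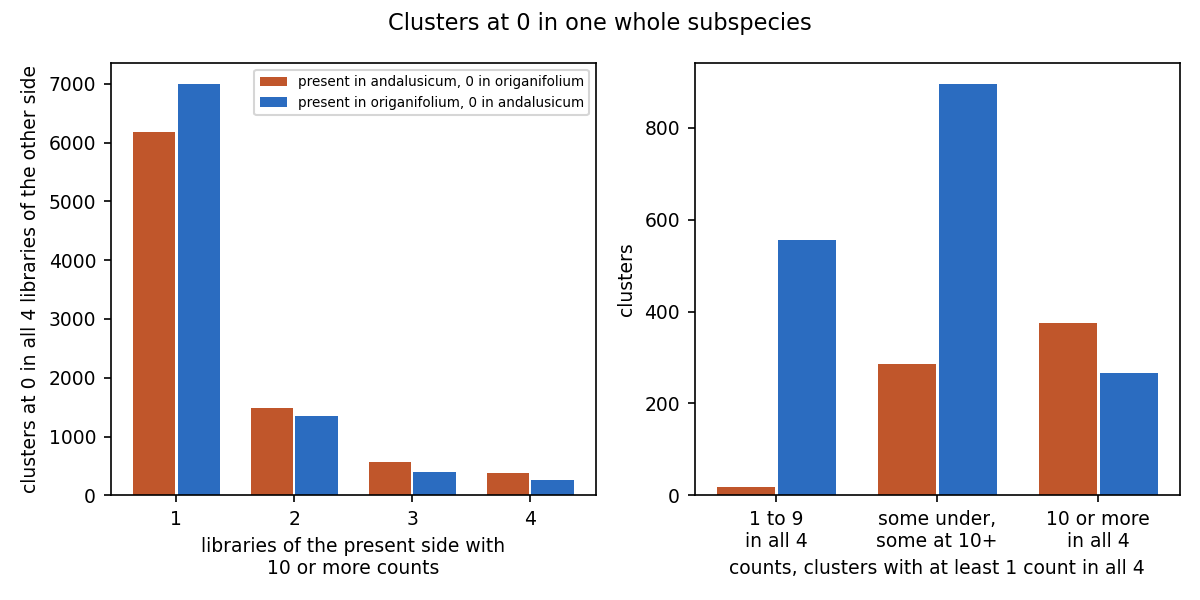
Left, number of clusters at 0 in all 4 libraries of one subspecies (vertical axis) by how many libraries of the other subspecies hold 10 or more counts (horizontal axis). Right, those with at least 1 count in every library of the present side, split by level, where 556 clusters with 1 to 9 counts are held by origanifolium alone and 19 by andalusicum alone.

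The highest bound among clusters at 0 in origanifolium belonged to Cluster-3823.56012, with a transcript of up to 518 nt. It stood at 1.59, 78.6, 16.6 and 371 CPM in andalusicum 1, 3, 6 and 8, so its mean of 117 CPM was at least 4091-fold above the floor and its lowest library at least 55.7-fold. Libraries 3 and 8, of different codes, carried most of it, and it lost its call in 13 of 19 alternatives, among them without andalusicum 3, 6 or 8 or any origanifolium library. A cluster at 56.3, 61.3, 104 and 75.8 CPM exceeded the floor at least 2602-fold and varied less between libraries. In molle it was near 0 in libraries 22 and 25, which share a code, and stood at 223 and 23.5 CPM in libraries 27 and 29 of the other molle code. A transcript of 659 nt at 36.8, 74.0, 35.5 and 133 CPM was at least 2444-fold higher, and in molle only library 29 held it, at 157 CPM.

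A transcript of 1644 nt stood at 70.3, 53.4, 44.7 and 36.4 CPM in andalusicum and was at least 1790.1-fold higher. It was at 0 in all marifolium libraries and, of the molle libraries, present in 27 alone at 27.1 CPM. A transcript of 1332 nt, at 41.9, 33.0, 27.2 and 48.0 CPM in andalusicum and at least 1312-fold higher than in origanifolium, was present in all molle libraries at 31.2 ± 5.08 CPM. In marifolium it was at 0 in libraries 12 and 15 of one code and at 63.6 and 46.9 CPM in libraries 17 and 18 of the other. On this cluster the marifolium libraries thus divided by title code.

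In the other direction the highest bound belonged to Cluster-3823.82195, at 0 in andalusicum and at 287, 508, 96.6 and 0.468 CPM in origanifolium 31, 33, 38 and 39. Its mean of 223 CPM was at least 8891-fold above the floor, and library 39 only 18.7-fold. It lost its call in 11 of 18 alternatives, among them without any 1 andalusicum library or origanifolium 31, 33 or 38. A transcript of 2109 nt at 184, 80.9, 90.7 and 33.6 CPM was at least 3879-fold higher in origanifolium. One of up to 1129 nt at 116, 81.5, 31.2 and 104 CPM was at least 3315-fold higher. Both were present in every marifolium library, at 43.7 ± 25.4 and 119 ± 121 CPM, and at or near 0 in at least 3 of the molle libraries.

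A cluster at 54.9, 44.3, 75.4 and 52.5 CPM in origanifolium was at least 2261-fold higher there. It split the 4 subspecies cleanly, with 49.0 ± 19.4 CPM in marifolium and 0 counts in all libraries of andalusicum and molle. A transcript of 2620 nt at 25.6 ± 6.57 CPM was at least 1018-fold higher, and a further cluster at 21.2 ± 6.55 CPM at least 844-fold higher. The first was at 0 or 0.0601 CPM at most in molle, the second at 0 in molle 25 and marifolium 17.

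Of the 640 clusters at 0 on a side, 4 were not called. In each of them a single library or a single code held most of the counts, as in a transcript of 1116 nt at 27.0 and 39.9 CPM in andalusicum 1 and 3 and at 0.668 and 0.428 CPM in andalusicum 6 and 8 (edgeR adjusted p = 0.0647). The others were at 51.8 CPM in andalusicum 8, at 20.4 CPM in andalusicum 3 and at 312 CPM in origanifolium 31, with no other library of the side above 31.4 CPM (edgeR adjusted p = 0.0612, 0.0641 and 0.0516).

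The libraries of molle and marifolium, which the contrast did not use, placed the called clusters unevenly. Of the 374 clusters absent from origanifolium, marifolium was at 0 in all 4 libraries for 226 (60.4%) and molle for 119 (31.8%), and 10 or more counts in every library were found in 8 and 60. Of the 266 absent from andalusicum, marifolium was at 0 for 49 (18.4%) and molle for 97 (36.5%), and held 10 or more counts in every library for 55 and 28. Thus 30 clusters were present in andalusicum and molle and at 0 in origanifolium and marifolium, and 22 were present in origanifolium and marifolium and at 0 in andalusicum and molle. The crossed arrangements held 3 clusters for andalusicum with marifolium and 1 for origanifolium with molle. In 83 clusters andalusicum alone had counts, and in 21 origanifolium alone.

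For the called clusters with counts on each side, the mean log2 CPM of molle and marifolium was set between those of andalusicum and origanifolium. Of the 657 higher in andalusicum, molle was nearer to andalusicum in 311 (47.3%) and marifolium in 158 (24.0%). Of the 669 lower in andalusicum, molle was nearer to andalusicum in 485 (72.5%) and marifolium in 381 (57.0%). Molle was nearer to andalusicum in more clusters than marifolium in both directions, and both were so in a larger share of the decreases. On clusters with 10 or more counts in all 8 libraries the shares for molle were 57.3% of the higher and 72.2% of the lower, and for marifolium 31.5% and 56.1%. These shares are descriptions, with no test, over clusters picked for a difference between the other subspecies.

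**Figure D5:**
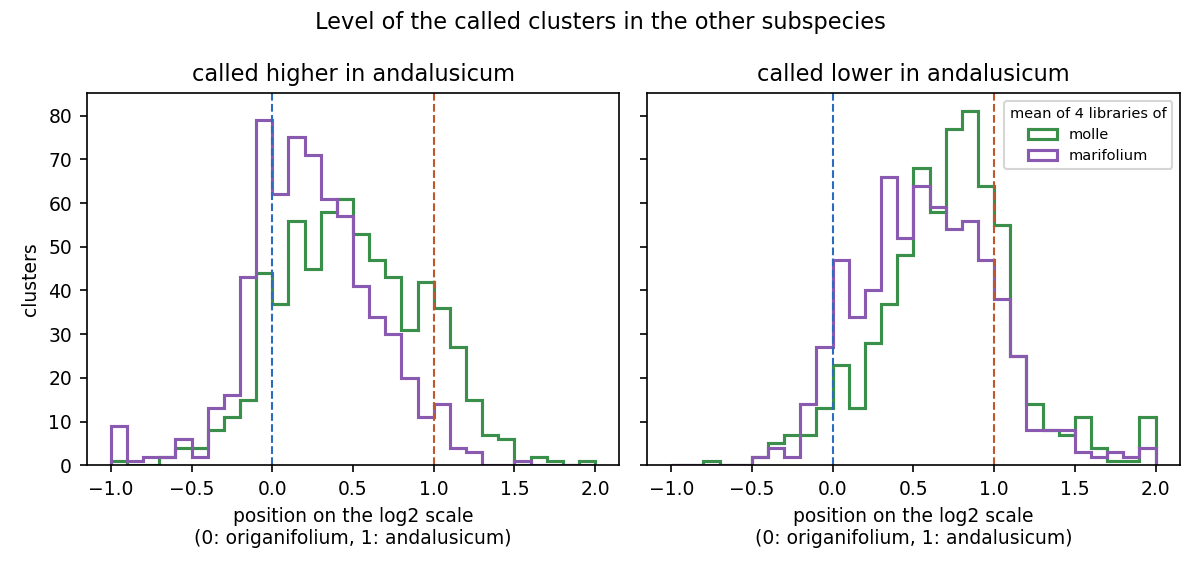
Number of called clusters with counts on each side (vertical axis) by the position of the mean log2 CPM of molle or marifolium (horizontal axis), where 0 is the origanifolium mean and 1 the andalusicum mean; values beyond the axis are counted in its end bins. Marifolium lies nearest to origanifolium for clusters higher in andalusicum, with 158 of 657 nearer to andalusicum, and molle lies nearest to andalusicum for clusters lower there, with 485 of 669.

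Between the codes of one subspecies hardly any cluster passed the test that used 2 libraries against 2. Codes andal260 and andal261 differed in 2 of 36171 clusters (0.00553%) and codes origa-247 and origa-255 in 0 (0.0%), with 3402 and 2259 at an unadjusted p under 0.05. DESeq2 called 1198 (3.31%) and 757 (2.09%), so a count near 0 from edgeR does not show that the codes were alike. The called clusters, picked for that, had one pattern. The first was at 0 in andalusicum 1 and 3 and at 37.2 and 41.6 CPM in andalusicum 6 and 8 (edgeR adjusted p = 0.0255). The second was at 0.935 and 0.870 CPM in andalusicum 1 and 3 and at 108 and 79.3 CPM in 6 and 8 (log2 fold change -6.64 ± 0.37 SE, edgeR adjusted p = 0.0161). In both, all origanifolium libraries stood in the range of code andal261 or near it, from 36.1 to 66.7 CPM and from 41.5 to 99.8 CPM. Molle and marifolium libraries ran from 6.75 to 64.1 CPM on the first and from 14.9 to 108 CPM on the second, so code andal260 held the lowest libraries of all 16. Neither call was made when any 1 of the 8 libraries was left out, and between subspecies neither was called (edgeR adjusted p = 0.698 and 0.850). In the model with 4 title codes, however, both were called lower in andalusicum (edgeR adjusted p = 0.00711 and 0.00821, the only 1 of 20 and of 21 alternatives to call them).

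Some clusters are linked, by the assemblers' own gene names, to others that may be further transcripts of 1 gene. Of the 2756 linked groups with at least 2 tested clusters, 36 had 2 or more calls. Among all tested clusters, linked or not, 5.42% were called. Whether the 36 groups, or the directions of their calls, go beyond what that share gives was not tested. Calls ran the same way in 18 groups higher and 15 lower in andalusicum, and both ways in 3. Each of these 3 groups holds a cluster at 0 or under 10 counts in every library of a side. The call of such a cluster is largely fixed by the testing rule. In the most complete exchange, a cluster stood at 1.94, 2.61, 3.53 and 0.459 CPM in andalusicum and 0 in all other 12 libraries, while its partner was at 0 in andalusicum and at 1.26, 2.29, 1.25 and 2.90 CPM in origanifolium. In the second, a cluster at 7.86 ± 5.48 CPM in andalusicum and 0 in origanifolium was linked to one at 49.5 ± 21.3 against 185 ± 92.2 CPM (edgeR adjusted p of the partner 0.0262). In the last, one at 408 ± 189 against 152 ± 42.8 CPM was linked to one at 0.0595 ± 0.0513 against 2.81 ± 1.26 CPM (edgeR adjusted p of the former 0.0444). The first cluster of the opening pair lost its call without andalusicum 3. In the second group the calls were lost without andalusicum 6 for the former and without andalusicum 1, 3 or 8 or origanifolium 33 or 38 for the latter, and in the last group that of the former was lost without andalusicum 3, 6 or 8 or any origanifolium library. Links touched few of the clusters at 0 on a side. Of the 374 absent from origanifolium 57 had a linked partner, and in 36 the partner had counts in origanifolium. Of the 266 absent from andalusicum these numbers were 42 and 27. With counts summed over linked clusters, 341 and 236 such units remained at 0 on a side.

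The same fit was run on 3 other pairs of subspecies, which share libraries with this one, so their counts stand side by side with no test of the difference. Andalusicum and molle differed in 630 of 35414 clusters (1.78%), andalusicum and marifolium in 932 of 35119 (2.65%), and molle and origanifolium in 1582 of 35120 (4.5%). Clusters called with counts on each side numbered 300, 366 and 1131, against 1326 for andalusicum and origanifolium. The shares called in this class were not worked out for the other pairs. Each number comes from a fit that also held the clusters at 0 on a side, without which the 1326 became 825. Clusters at 0 on a side were not most numerous here. Andalusicum and marifolium had 510 at 0 in marifolium and 213 at 0 in andalusicum, against 374 and 266 for the pair described.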

How the data were processed

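Poly-A RNA libraries of adult leaves were counted by the authors. The deposited table holds raw counts per cluster of assembled transcripts, 1 column per library, and a second deposited list pairs transcript names, some with a length in nt, with clusters. Per the submitters' processing notes, FastQC was used. No label or header names the assembler, clustering tool, aligner, counter or strandedness. The transcript names themselves take the form of the assembler Trinity in 70183 entries and that of the assembler Oases in 51826. Reads shared between paralogs, alleles or linked clusters may have been split, and antisense transcripts cannot be told apart.

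Counts were used as deposited, and 0 columns were unmatched. No pair of libraries of a subspecies agreed within sampling noise (chi-square per degree of freedom from 75.4 to 138). Tests used R 4.3.3 and edgeR 4.0.16 (TMM and the quasi-likelihood test, with p adjusted by Benjamini and Hochberg and called under 0.05) on the 8 libraries, with log2 fold changes and standard errors from the F statistic. The biological coefficient of variation was 79.6%. Codes were tested in a model with 4 codes. DESeq2 1.42.0 and limma 3.58.1 were alternatives. Distances used a prior count of 2. Thinning drew counts without replacement (numpy 2.4.6, seed 1). Clusters were linked by shared assembler gene names, and 1 linked group of 1566 was kept as single clusters. The edgeR script was tested on simulated data.

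Clusters described singly were taken among called clusters with at least 1 CPM on the higher side and no overlap of libraries. With 10 or more counts in all 8 libraries these were the 4 largest folds and 4 smallest p per direction, and at 0 on a side the 3 highest bounds and 3 smallest p. The 10 most abundant clusters were added. Identifiers were limited to 2 per direction. Others were picked after their values were seen: called clusters over 1000 CPM, uncalled clusters at 0 on a side, clusters called between codes and linked groups called both ways. The comparison and its lists were chosen with earlier results of these data known. No list of genes or markers was applied, since no names are paired with clusters, so the tissue label was not checked against markers.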

Additional observations from a re-analysis of the deposited data

Results flagged for a closer look

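In 11 of the 114 groups of 4 values examined, 1 library lay far from the other 3 by Dixon's criterion at the 95% level, where chance alone flags about 1 in 20. Values far from their group among clusters with counts in all 8 libraries were 0.913 CPM in origanifolium 38 for the 199.6-fold increase, 16.6 CPM in origanifolium 33 for the 60.2-fold increase, 3.38 CPM in origanifolium 31 for the transcript of 2391 nt, 38.8 CPM in origanifolium 39 for the transcript of 1702 nt and 40.3 CPM in origanifolium 39 for that of 367 nt. In each of these the outlying library stayed on its own side of the gap between the subspecies, as the choice of these clusters required. Among the abundant clusters, andalusicum 3 stood at 6013 CPM on the 7th most abundant, and origanifolium 31 at 1168 CPM on the called cluster with the highest mean. Andalusicum 6 stood at 687 CPM on a cluster linked to a partner called the other way. For the uncalled clusters at 0 on a side, andalusicum 3 held 20.4 CPM of a transcript of 1356 nt and origanifolium 31 held 312 CPM of another. The number of clusters with 10 or more counts was 40373 in andalusicum 8, above the other andalusicum libraries.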

How the results depend on the processing

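The total of 1962 calls, 1028 higher and 934 lower, came from 36171 tested clusters. It was 907 (501 and 406) of 89286 with no filter on low counts. With clusters at 0 on a side left out, it was 825 (401 and 424) of 35531. A refit of the 21673 clusters with 10 or more counts in all 8 libraries called 940 (423 and 517). The main fit had called 789 of that set (3.64%), so the number rose with the refit. On the 36171 clusters, a test against a 2-fold change called 1080 (591 and 489). Summing the libraries of each title code left 0 calls in every class. DESeq2 called 4932 (2434 and 2498), of which 1952 were among the 1962. Leaving out 1 library gave 942 to 1459 calls, 539 to 742 higher and 403 to 760 lower. Clusters with counts on each side gave 1326 calls (657 higher, 669 lower). With no filter there were 508, in equal numbers each way, and 825 with clusters at 0 left out. DESeq2 called 4298 (2064 and 2234), and the test against 2-fold 477 (245 and 232). Without 1 library there were 549 to 926 (291 to 451 higher, 258 to 518 lower). At 10 counts in all libraries, the refit called 423 higher, against 368 in the main fit. DESeq2 size factors, filterByExpr, a limit of 1 CPM, limma voom with or without the code as a random block, the model with 4 codes, all 16 libraries and summed linked clusters stayed within 1.5 times. No cluster called both here and under an alternative changed direction, summed linked clusters not compared. Clusters present in andalusicum and at 0 in origanifolium numbered 678 at 1 count and 130 at 50 counts, and 439 to 578 without 1 library; the reverse numbered 1718, 76 and 314 to 407. Calls between codes were 1198 and 757 with DESeq2, and 0 without any 1 library, where 1 library of a code is assumed to vary like the others. Called clusters described singly lost their call with code sums (lowest adjusted p there 0.118). No paired analysis was possible because the subspecies share no replicate numbers. At these depths a level under about 0.135 CPM, which is 3 counts in the shallowest library, may be missed there.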
